A study of Sus scrofa with 6 samples.

Results

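10 genes of iron and copper handling were followed through the reprogramming of pig fibroblasts: FTH1, TFRC, TF, STEAP3, SLC40A1, CP, SLC11A2, HMOX1, IREB2 and ATP7A. They were taken by gene symbol from a table of 18007 genes, and they had been chosen by their measured values in these libraries, so the differences of these 10 genes are given as a description and without a test. 7 symbols had a row (CP, TFRC, TF, SLC40A1, STEAP3, IREB2 and ATP7A), and FTH1 was found by its position, because its row carries an identifier and the annotation ferritin heavy chain in place of a symbol. SLC11A2 and HMOX1 are not analysed here, which leaves 8 of the 10 genes with values.

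The samples were 3 lines of porcine embryonic fibroblasts (PEF5, PEF7 and PEF8) and the 3 lines of induced pluripotent stem cells made from them (piPSC5, piPSC7 and piPSC8), with 1 RNA-seq library for each line. The fibroblasts came from the ear tip of embryos at day 90 of a cross between a Large White boar (written Longwhite in the labels) and a Meishan sow. The piPSC lines carried lentiviral Oct4, Sox2, Klf4 and c-Myc under a doxycycline-controlled promoter together with its transactivator, and their colonies were grown in LF2i medium on mouse feeder cells, so a piPSC library differs from its PEF library in vector, medium and feeder as well as in cell state, and these cannot be told apart. A library held between 11010629 and 17836510 fragments. Fewer cells of a type and less RNA per cell cannot be told apart in such bulk samples.

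Iron enters most cells bound to the plasma protein transferrin (TF) through the transferrin receptor (TFRC), is reduced in the endosome by STEAP3 and moved to the cytosol by SLC11A2. Surplus iron is stored in ferritin, whose heavy chain FTH1 oxidizes it, or leaves through ferroportin (SLC40A1), with a copper-containing ferroxidase such as ceruloplasmin (CP) oxidizing it outside the cell, while HMOX1 frees iron from haem and ATP7A delivers copper to secreted enzymes and out of the cell. When iron is scarce, the iron regulatory proteins, one of which is IREB2, bind hairpins called iron-responsive elements, blocking translation where the hairpin lies in the 5′ UTR and protecting the mRNA where it lies in the 3′ UTR.

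The members of this circuit that carry such hairpins could be read from the pig genome (Sscrofa11.1). A hairpin core was searched on the sense strand of the transcript as a C, then 5 bases, the loop CAGTGN, and 5 bases that pair back to the first 5, with G-T pairs allowed, and no other motif was searched. In RefSeq transcripts of all genes it was present in the 5′ UTR of 71 of 17787 genes (0.399%) and in the 3′ UTR of 125 of 18640 (0.671%). FTH1 held one at chr2:9535175-9535204 (plus strand) and SLC40A1 one at chr15:94161659-94161688 (minus strand), both in the 5′ UTR. TFRC held 4 downstream of its stop codon, at chr13:133998466-133998495, chr13:133998876-133998905, chr13:133998941-133998970 and chr13:133998988-133999017 (plus strand), in a stretch that lies inside the gene of the deposited table. These 4 were not in a RefSeq UTR. They came from reading on from the RefSeq stop codon to the end of the gene, which was done for the members only. The share of 0.671% is of RefSeq 3′ UTRs and does not cover such stretches. The sites are shown because these 3 genes are the textbook carriers of such hairpins among storage, export and import genes, and the capitals mark the loop.
FTH1 5′ site: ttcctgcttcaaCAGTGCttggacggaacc
SLC40A1 5′ site: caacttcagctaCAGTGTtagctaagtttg
TFRC 3′ site 1: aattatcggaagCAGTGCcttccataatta
TFRC 3′ site 2: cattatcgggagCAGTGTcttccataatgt
TFRC 3′ site 3: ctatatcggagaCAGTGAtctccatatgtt
TFRC 3′ site 4: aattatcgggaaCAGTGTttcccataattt
No match was found for CP, STEAP3, IREB2, ATP7A or TF, which says only that these letters were not in the windows read. A match is a description of sequence and not a measured binding site.

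The cell labels were compared with marker genes before the members were read. The summed level of 10 fibroblast markers, among them COL1A1 and THY1, ran from 4492 to 6456 FPKM (fragments per kilobase of transcript and per 1000000 fragments) in PEFs and from 131 to 223 FPKM in piPSCs, and all 10 were lower in every piPSC than in every PEF. Of 10 pluripotency markers 7 had a row. Their summed level ran from 17.5 to 41.6 FPKM in PEFs and from 10 to 21.9 FPKM in piPSCs, and KLF4 alone had 17.4 to 41.6 FPKM in PEFs and 4.45, 9.4 and 12.9 FPKM in piPSC5, piPSC7 and piPSC8. SOX2 had 3.01, 2.49 and 0.129 FPKM in piPSC5, piPSC7 and piPSC8 and at most 0.0208 FPKM in PEFs, LIN28B had 2.51, 0.281 and 8.9 FPKM in piPSCs, and NANOG did not exceed 0.0919 FPKM in any library. All 6 cycling cell genes were higher in every piPSC than in every PEF, with sums of 263 to 303 against 27.8 to 117 FPKM. Of the erythroid markers 5 had a row and summed to at most 0.559 FPKM in any library, and the epithelial and trophoblast markers with a row summed to 0.515 to 8.57 and 0.104 to 0.624 FPKM in piPSCs, against 11.4 to 36.9 and 8.01 to 29.6 FPKM in PEFs, with 4 of 5 trophoblast markers lower in every piPSC than in every PEF. CLDN6 made up most of the epithelial sum, at 16.6, 11 and 36.2 FPKM in PEFs and 1.43, 7.55 and 0.365 FPKM in piPSCs. KRT8 ran the other way in piPSC5 and piPSC7, at 0.232 and 0.903 FPKM against at most 0.0896 FPKM in PEFs. Of the 5 epithelial markers with a row, 2 were lower in every piPSC than in every PEF. The PEF lines are described as male, yet the Y-linked gene DDX3Y had 0 fragments in lines 5 and 7, both before and after reprogramming, and fragments in both libraries of line 8.

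Levels of the 8 genes spanned several orders of magnitude, and their order differed between the cell types. In PEFs the mean level was highest for FTH1 (3777 FPKM), then SLC40A1 (70.8 FPKM), TFRC (33.9 FPKM), IREB2 (9.18 FPKM), ATP7A (2.44 FPKM), STEAP3 (1.05 FPKM), CP (0.154 FPKM) and TF (0). Among neighbours in that order, the ranges of SLC40A1 and TFRC overlapped and the others did not. In piPSCs the order was FTH1 (807 FPKM), CP (98.4 FPKM), TFRC (61.2 FPKM), IREB2 (27.8 FPKM), SLC40A1 (7.15 FPKM), STEAP3 (2.34 FPKM), ATP7A (2.14 FPKM) and TF (0.038 FPKM). There the ranges of CP and TFRC, of TFRC and IREB2, of SLC40A1 and STEAP3, and of STEAP3 and ATP7A overlapped, although CP was above TFRC and TFRC above IREB2 within each of the 3 libraries. CP thus stood in next to last place in PEFs and in second place in piPSCs.

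**Figure D1:**
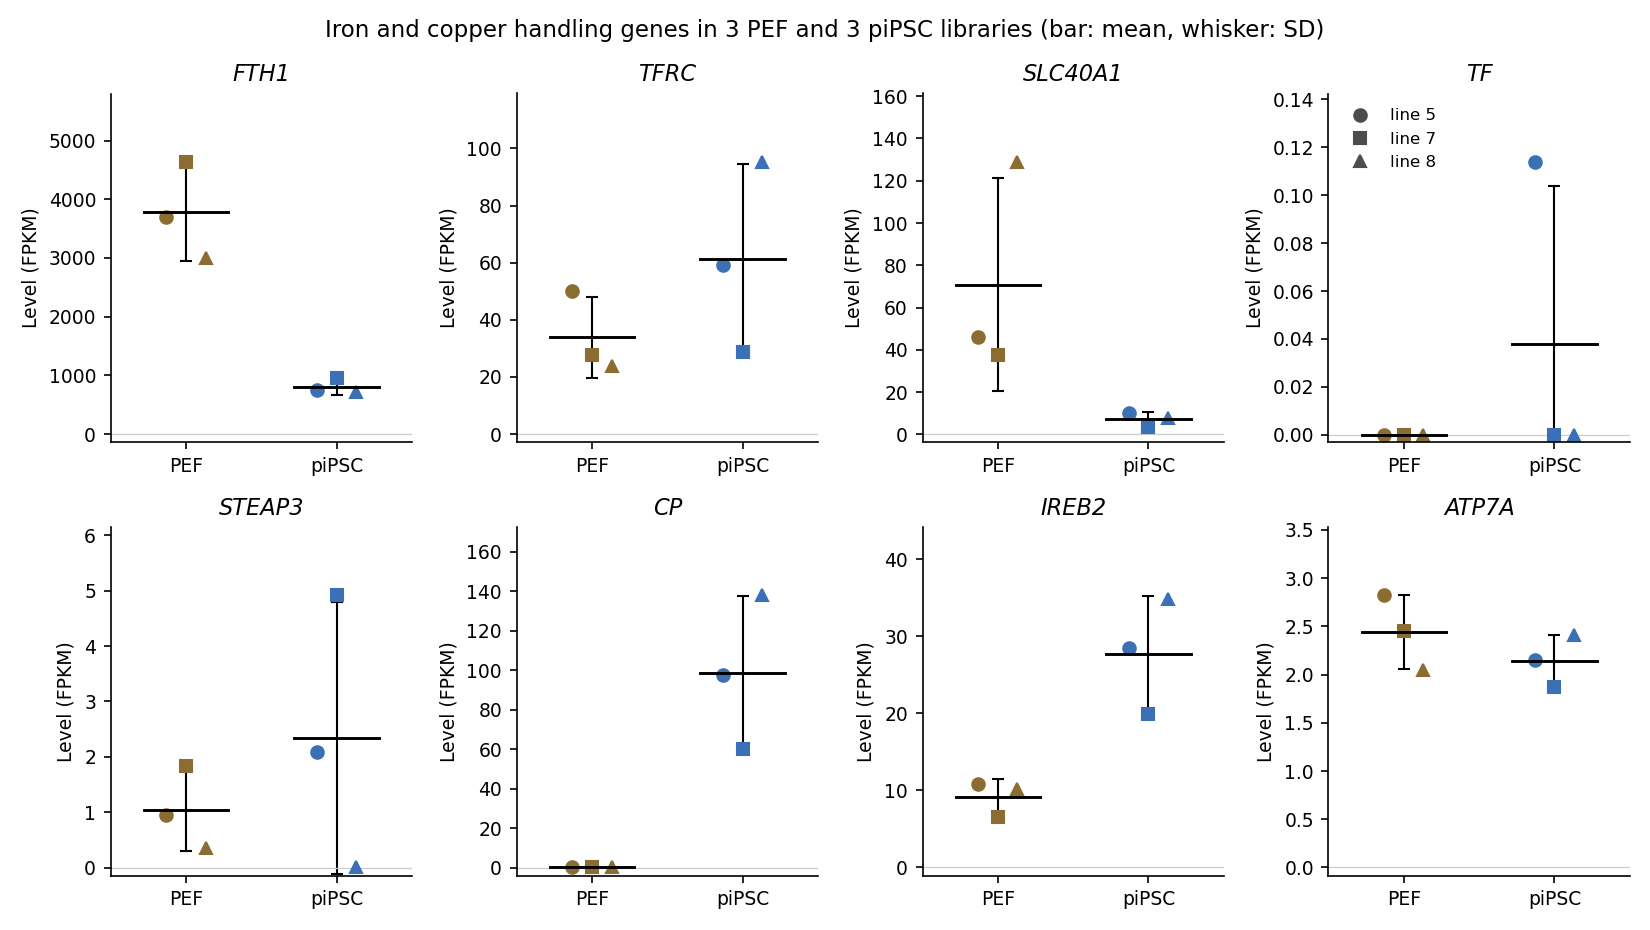
Level of each gene in FPKM (linear axes, 1 panel per gene, each with its own scale) in the 3 PEF and 3 piPSC libraries; points are libraries, shaped by line, bars are means and whiskers SDs of 3 libraries. FTH1 and SLC40A1 were lower and CP and IREB2 higher in every piPSC library than in every PEF library, while the libraries of TFRC, STEAP3 and ATP7A overlapped and TF was at or near 0.

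7 of the 8 genes passed the filter on low values (a mean of at least 0.5 FPKM over the 6 libraries), and TF did not. In the fit over all genes, 36.8% of 12428 genes were called, by a limma adjusted p under 0.05 and a change of at least 2-fold, with 20.2% higher and 16.7% lower in piPSCs, and the ranges of the PEF and piPSC libraries did not overlap in 64.1%. Higher genes made up 54.8% of the calls, and 42.6% or 41.4% when libraries were rescaled to the median ratio or to an equal sum. Of the 7 genes, CP and IREB2 met that call as higher and SLC40A1 and FTH1 as lower, and these 4 were also the ones whose ranges did not overlap. Because the genes were selected on this contrast, nothing is read from those counts. Fold changes below are on the log2(FPKM + 1) scale unless they are given as ratios of FPKM, and the median of all tested genes on that scale was 0.20, so values are to be read relative to that shift.

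Among the genes of iron entry, TFRC, the receptor that brings transferrin-bound iron into the cell (ENSSSCG00000011848, chromosome 13 from 133878636 to 134000847, plus strand), had 50.2, 27.6 and 24 FPKM in PEF5, PEF7 and PEF8 and 59.3, 28.9 and 95.4 FPKM in piPSC5, piPSC7 and piPSC8. The groups overlapped, since piPSC7 lay below PEF5. The mean was 33.9 ± 14.2 FPKM in PEFs and 61.2 ± 33.3 FPKM in piPSCs (SD, n = 3), which is a log2 difference of 0.75 (SE 0.47). Against its own PEF line the ratio was 1.18 in line 5, 1.05 in line 7 and 3.98 in line 8. The difference in the means therefore came mostly from line 8, and the log2 fold change was 0.15 with both libraries of that line left out. The gene model of TFRC overlaps that of ZDHHC19 over 7128 bases on the same strand, but ZDHHC19 had at most 1 fragment in any library.

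TF, the transferrin protein itself (ENSSSCG00000011640, chromosome 13 from 74930655 to 74970593, plus strand), had 4 fragments in piPSC5 (0.114 FPKM) and 0 in the other libraries. At these depths a count of 0 allows a level of up to 0.0721 to 0.117 FPKM, by counting error only. TF is mainly a product of the liver, and no fold change is given for it.

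STEAP3, the endosomal reductase that prepares iron for leaving the endosome (ENSSSCG00000029304, chromosome 15 from 24699833 to 24786159, plus strand), had 0.953, 1.84 and 0.357 FPKM in PEF5, PEF7 and PEF8 and 2.08, 4.92 and 0.0175 FPKM in piPSC5, piPSC7 and piPSC8. The groups overlapped, with both the highest and the lowest library among the piPSCs. The lines ran in opposite directions, with ratios of piPSC to PEF of 2.18 in line 5 and 2.68 in line 7, while line 8 went from 28 fragments to 1. The ratio in line 8 was 0.0491, with a 95% interval from counting error of 0.0012 to 0.297 (exact binomial). The log2 fold change over the groups was 0.43 (SE 0.65), smaller than its error, and its sign turned without piPSC7, to -0.15, and in a fit to recovered fragments, to -0.31.

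The storage gene FTH1 (ENSSSCG00000014540, chromosome 2 from 9535046 to 9538043, plus strand) was the most abundant of the genes in each library. It had 3691, 4641 and 2999 FPKM in PEF5, PEF7 and PEF8 and 745, 961 and 714 FPKM in piPSC5, piPSC7 and piPSC8. All piPSC values lay below all PEF values, and the spread within each group was narrow, with coefficients of variation of 21.8% and 16.7%. The mean was 3777 ± 824 FPKM in PEFs and 807 ± 135 FPKM in piPSCs (SD, n = 3), a ratio of 4.68 and a log2 difference of -2.22 (SE 0.24). The 3 lines gave similar ratios of PEF to piPSC, of 4.96, 4.83 and 4.2.

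FTH1 took 0.395%, 0.496% and 0.321% of all fragments in PEF5, PEF7 and PEF8 and 0.0796%, 0.103% and 0.0763% in piPSC5, piPSC7 and piPSC8. Among all genes it ranked 4, 3 and 7 by FPKM in the PEF libraries and 60, 51 and 63 in the piPSC libraries. Ferritin genes have near-identical copies in mammalian genomes, and the table holds 8 further rows annotated as a ferritin chain, none above 1.1 FPKM, so reads shared with such copies make the values of FTH1 uncertain to an extent that was not tested.

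The exporter SLC40A1, or ferroportin (ENSSSCG00000027157, chromosome 15 from 94115562 to 94161781, minus strand), had 46.3, 37.4 and 129 FPKM in PEF5, PEF7 and PEF8 and 10.3, 3.42 and 7.78 FPKM in piPSC5, piPSC7 and piPSC8. The groups did not overlap, and PEF8 stood well above the other PEF libraries. The mean was 70.8 ± 50.4 FPKM in PEFs and 7.15 ± 3.46 FPKM in piPSCs (SD, n = 3), which is a log2 difference of -3.03 (SE 0.54). By line the level in PEFs was 4.51, 10.9 and 16.6 times that in piPSCs, so the direction was shared and the size was not. Without PEF8 the log2 fold change was -2.49.

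The levels of TFRC and SLC40A1, import and export of iron, can be set against each other within a library, where scaling between libraries plays no part. TFRC was 1.08, 0.739 and 0.186 times SLC40A1 by FPKM in PEF5, PEF7 and PEF8 and 5.78, 8.46 and 12.3 times in piPSC5, piPSC7 and piPSC8. By FPKM the export gene was thus the higher of the pair in PEF7 and PEF8 and the import gene the higher in the other 4 libraries, by the widest margin in the piPSCs. Which gene is the higher rests also on the gene models, of 9449 bases for TFRC and 3982 for SLC40A1. In PEF7, TFRC had 4364 fragments and SLC40A1 2490. The lengths are the same in every library, so they do not enter the difference of the ratio between libraries. The ratio of FTH1 to TFRC, storage against import, was 73.5, 168 and 125 in the PEF libraries and 12.6, 33.2 and 7.48 in the piPSC libraries.

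**Figure D2:**
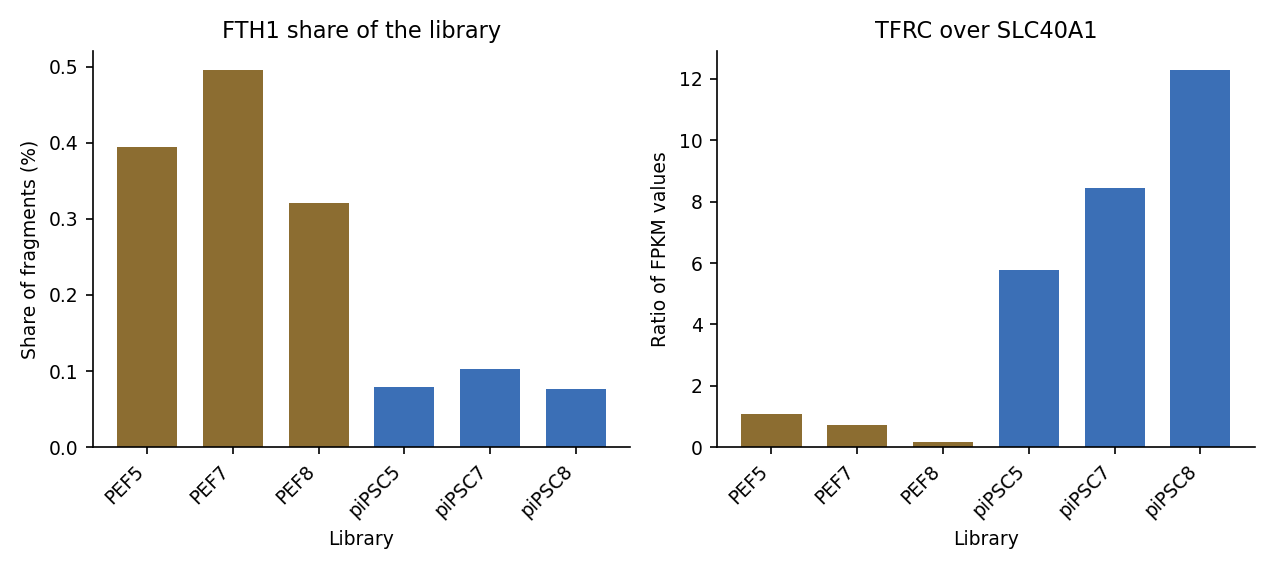
Left, share of all fragments of a library that fell on FTH1 (percent); right, FPKM of TFRC divided by FPKM of SLC40A1; each bar is 1 library and both axes start at 0. The FTH1 share was between 0.321% and 0.496% in PEFs and at most 0.103% in piPSCs, and the TFRC to SLC40A1 ratio was at most 1.08 in PEFs and at least 5.78 in piPSCs.

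CP, the copper-dependent ferroxidase that works beside ferroportin (ENSSSCG00000011700, chromosome 13 from 89396807 to 89463547, minus strand), had 0.125, 0.251 and 0.0866 FPKM in PEF5, PEF7 and PEF8, from 17, 32 and 10 fragments. It had 97.4, 59.8 and 138 FPKM in piPSC5, piPSC7 and piPSC8, from 11175, 5420 and 11576 fragments. PEFs were close to the limit of detection and every piPSC was far above it. The ratio of piPSC to PEF was 779 in line 5, 238 in line 7 and 1592 in line 8, and 638 for the means. On the log2(FPKM + 1) scale, which understates the change of a gene with so little in PEFs, the difference was 6.35 (SE 0.31). The 95% counting intervals of the PEF values ran from 0.0415 FPKM at the lowest to 0.355 FPKM at the highest (exact Poisson).

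Ceruloplasmin is best known as a secreted product of hepatocytes, and the markers of that cell type were therefore examined. Of 12 hepatocyte and yolk sac endoderm markers 9 had a row. Their summed level was 0.827 to 9.92 FPKM in PEFs and 0.73 to 2.34 FPKM in piPSCs, and all 9 were under 1 FPKM in all piPSCs. ALB was higher in every piPSC than in every PEF, at 0.0823 to 0.233 against 0.0366 to 0.0755 FPKM. GATA6 was at 0.549, 0.815 and 0 FPKM in piPSC5, piPSC7 and piPSC8 and at most 0.136 FPKM in PEFs. SOX17 made up much of the PEF sum, at 2.13, 0.0412 and 7.42 FPKM, and was at 0 in all piPSCs. AFP was detected in piPSC8 alone, at 0.0451 FPKM, and TTR was at 0 in all piPSCs. A part of such cells in the level of CP was not tested. Macrophages also make ceruloplasmin, and 7 of 8 macrophage markers had a row. They summed to 13 to 24.5 FPKM in PEFs and 3.53 to 4.33 FPKM in piPSCs. CD14 alone had 9.2, 21.9 and 13.1 FPKM in PEFs and at most 0.239 FPKM in piPSCs. It was the only one lower in every piPSC than in every PEF. CD68 and CSF1R were higher in each piPSC than in its own PEF, though their groups overlapped. CD68 had 1.11, 0.786 and 2.29 FPKM in PEFs and 1.98, 0.804 and 2.71 FPKM in piPSCs. The 3′ end of CP overlaps HPS3 on the opposite strand over 16801 bases, and the use of strand in counting is not given in the sources used here. HPS3 had 2.74 to 5.37 FPKM over the 6 libraries.

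IREB2, one of the iron regulatory proteins that bind iron-responsive elements (ENSSSCG00000001756, chromosome 7 from 47481539 to 47529187, minus strand), had 10.8, 6.59 and 10.2 FPKM in PEF5, PEF7 and PEF8 and 28.5, 19.9 and 34.9 FPKM in piPSC5, piPSC7 and piPSC8. Every piPSC library lay above every PEF library. The mean was 9.18 ± 2.27 FPKM in PEFs and 27.8 ± 7.55 FPKM in piPSCs (SD, n = 3), a ratio of 3.03 and a log2 difference of 1.49 (SE 0.27). The ratios by line were 2.65, 3.02 and 3.43. IREB2 protein is controlled mainly by its degradation when iron is plentiful, and these values are of mRNA.

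ATP7A, the copper-transporting ATPase (ENSSSCG00000012437, chromosome X from 61973012 to 62110048, plus strand), had 2.82, 2.45 and 2.05 FPKM in PEF5, PEF7 and PEF8 and 2.15, 1.87 and 2.41 FPKM in piPSC5, piPSC7 and piPSC8. The groups overlapped and the spread within each was small. The mean was 2.44 ± 0.384 FPKM in PEFs and 2.14 ± 0.274 FPKM in piPSCs (SD, n = 3), which is a log2 difference of -0.13 (SE 0.20). The piPSC was lower in lines 5 and 7, at 0.763 and 0.762 times its PEF, and higher in line 8, at 1.18 times. The gene is X-linked, and line 8 is also the line with DDX3Y fragments. Any bearing of this on the level of ATP7A was not tested.

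**Figure D3:**
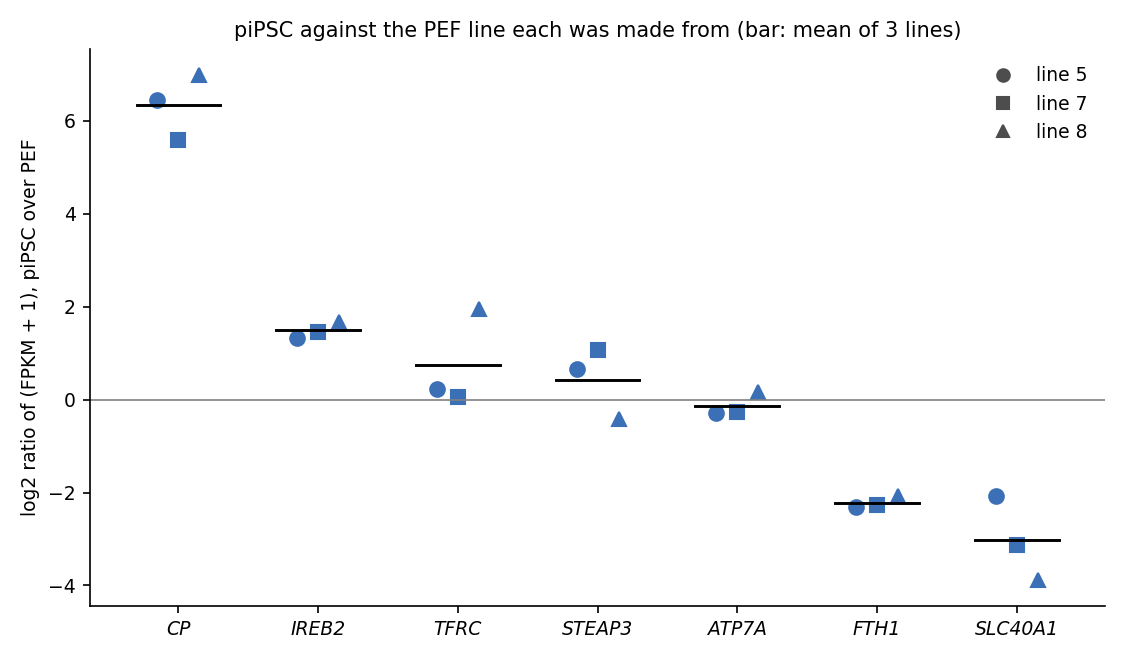
Difference of log2(FPKM + 1) between each piPSC line and the PEF line it was made from, for the 7 genes with a mean of at least 0.5 FPKM; points are the 3 lines, by shape, and bars their means. CP stood at 5.60 or above, IREB2 between 1.33 and 1.68, FTH1 between -2.31 and -2.07 and SLC40A1 between -3.89 and -2.07, while STEAP3 and ATP7A had lines on both sides of 0 and TFRC reached 1.95 in line 8 alone.

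To place these genes in their pathway, 97 other genes of iron, haem and copper handling were listed in 7 groups by function. A row was found for 88 of them, 70 passed the filter on low values, and 15 were called higher and 14 lower in piPSCs (limma, adjusted p under 0.05 and at least 2-fold). That is 41.4% of those tested beside 36.8% of all genes, and the median log2 fold change was 0.09 beside 0.20. The fit with a replicate block for the line, which pairs each piPSC with its PEF, called MELTF no longer and changed no other call of the list. The markers of fibroblasts and of cycling cells moved with the same contrast over their whole lists. The sums of the epithelial markers, mostly CLDN6, and of the trophoblast markers moved with it too. The part of all these markers in these differences was not tested.

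**Figure D4:**
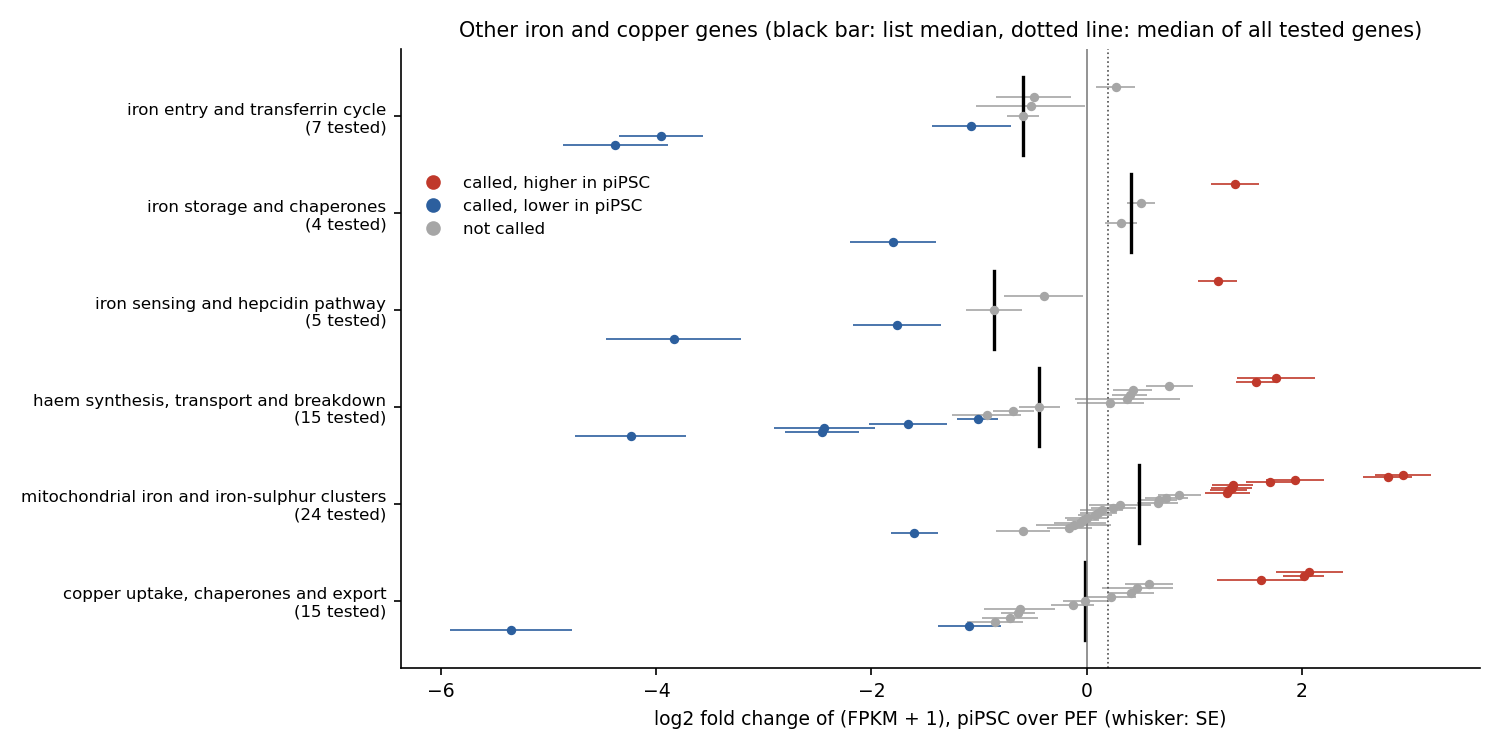
log2 fold change of (FPKM + 1), piPSC over PEF, with its SE for the 70 other iron, haem and copper genes tested, in groups by function; red and blue points are genes called higher and lower and grey points were not called. The black bar of the group of mitochondrial iron and iron-sulphur clusters, at 0.49, lies to the right of the median of all tested genes, 0.20. That of the sensing group, at -0.86, lies to the left, but this group has only 5 tested genes, from -3.84 (EPAS1) to 1.22 (ACO1).

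Of 7 tested genes of iron entry, 3 were called lower and 4 were not called, which is 42.9% called beside 36.8% of all tested genes. STEAP2, a metalloreductase of the same family as STEAP3, fell from 49, 25.1 and 53.3 FPKM in the PEF lines to 0.692, 0.196 and 2.9 FPKM in the piPSC lines (log2 fold change -4.38, SE 0.49, limma adjusted p = 0.000914). STEAP1, another member of that family, fell from 209, 130 and 284 FPKM to 11.4, 7.41 and 18.8 FPKM (log2 fold change -3.96, SE 0.39, limma adjusted p = 0.000643). Both were far above STEAP3 in each PEF library, where STEAP3 was at most 1.84 FPKM. MELTF, a membrane-bound relative of transferrin, was at 0.892, 0.857 and 3.29 FPKM in PEFs and at most 0.287 FPKM in piPSCs, with a limma adjusted p of 0.0495 that became 0.073 with the replicate block. TFR2, the second transferrin receptor, and STEAP4 did not exceed 0.229 and 0.644 FPKM and were not tested.

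Among the storage genes, FTL, the ferritin light chain, fell beside the heavy chain, from 6.93, 11.8 and 8.94 FPKM in the PEF lines to 2.85, 2.89 and 0.585 FPKM in the piPSC lines (log2 fold change -1.80, SE 0.40, limma adjusted p = 0.0106). FTH1 was at 261 to 1220 times its FPKM, and it too has near-identical copies, so its level is uncertain. FTL also carries a 5′ site, at chr6:54231194-54231223 (plus strand), shown here for comparison with FTH1.
FTL 5′ site: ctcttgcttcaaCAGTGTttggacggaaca
PCBP2, a cytosolic chaperone that hands iron to ferritin, rose from 82.3, 96.5 and 55.7 FPKM to 204, 186 and 210 FPKM (log2 fold change 1.38, SE 0.22, limma adjusted p = 0.00306). NCOA4, the receptor that takes ferritin to the lysosome for breakdown, was at 13.7 to 16.4 FPKM in PEFs and 17.7 to 20.5 FPKM in piPSCs and was not called (limma adjusted p = 0.112). The other ferroxidases of the list, HEPH and HEPHL1, were below the filter, and HEPH did not exceed 0.281 FPKM in any library, against at least 59.8 FPKM for CP in piPSCs.

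Of 5 tested genes of iron sensing and the hepcidin pathway, 1 was called higher and 2 lower, which is 60% beside 36.8% of all tested genes. ACO1, which doubles as the other iron regulatory protein, rose from 26.6, 27.2 and 23.8 FPKM to 51.8, 58.6 and 75.8 FPKM (log2 fold change 1.22, SE 0.18, limma adjusted p = 0.00228). Its change fell just short of 2-fold when libraries were rescaled to the median ratio or to an equal sum, at log2 fold changes of 0.95 and 0.92. FBXL5, the iron-sensing part of the ligase that degrades IREB2, was at 16.9 to 34.6 FPKM in PEFs and 12.1 to 13.5 FPKM in piPSCs, which passed in adjusted p (limma, 0.031) but not in size (-0.86 on the log2 scale, SE 0.26) and was called under both rescalings and without PEF7. The limma adjusted p of FBXL5 lay above 0.05, between 0.055 and 0.0845, without PEF5, PEF8, piPSC5, piPSC7 or piPSC8. EPAS1, the hypoxia factor HIF-2 alpha, fell from between 171 and 185 FPKM to 19.2, 3.14 and 21.8 FPKM (log2 fold change -3.84, SE 0.63, limma adjusted p = 0.00328; -3.05 without piPSC7), and HFE, a partner of the transferrin receptor, fell by 1.76 on the log2 scale (limma adjusted p = 0.0127).

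Of 15 tested genes of haem synthesis, transport and breakdown, 2 were called higher and 5 lower, which is 46.7% beside 36.8% of all tested genes. HMOX2, the constitutive haem oxygenase beside HMOX1, was at 5.67, 7.25 and 7.53 FPKM in PEFs and 3.11, 2.61 and 2.9 FPKM in piPSCs (log2 fold change -1.01, SE 0.19, limma adjusted p = 0.00562), so it passed the 2-fold limit narrowly, and it missed it without PEF7, PEF8 or piPSC7, at -0.96, -0.94 and -0.96. LRP1, the receptor for haem bound to haemopexin and a receptor of many other ligands, fell by 4.24 on the log2 scale, from between 79.4 and 161 FPKM to between 1.66 and 8.18 FPKM. SLC48A1, a haem transporter of lysosomes, and BLVRB, a biliverdin reductase, fell by 2.46 and 2.44 on the same scale. CPOX, an enzyme of haem synthesis, and FLVCR1, a haem exporter, rose by 1.58 and 1.76 (limma adjusted p = 0.0012 and 0.00764).

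Of 24 tested genes of mitochondrial iron and iron-sulphur cluster assembly, 8 were called higher and 1 lower, and the median log2 fold change was 0.49, beside 0.20 for all tested genes. The share called, 37.5%, was close to the 36.8% of all tested genes. MMS19, which passes clusters to proteins of DNA metabolism, rose from between 5.29 and 7.05 FPKM to between 34.6 and 57.5 FPKM (log2 fold change 2.80, SE 0.23, limma adjusted p = 0.000389). FDXR, the ferredoxin reductase, rose by 1.94 (limma adjusted p = 0.00182). The gene called lower was SLC25A28, a carrier of iron into mitochondria, at 19.4, 25.1 and 30.6 FPKM in PEFs and 6.48, 9.19 and 6.99 FPKM in piPSCs (limma adjusted p = 0.00191).

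Of 15 tested copper genes, 3 were called higher and 2 lower, which is 33.3% beside 36.8% of all tested genes. ATP7B, the relative of ATP7A that loads copper onto ceruloplasmin in liver, rose from 1.14, 0.722 and 1.64 FPKM to 12.3, 6.6 and 6.23 FPKM (log2 fold change 2.07, SE 0.31, limma adjusted p = 0.00241). By FPKM, ATP7A was the higher of the 2 ATPases in each PEF and ATP7B in each piPSC. That order rests also on gene lengths, since ATP7B was counted over 2652 bases (chromosome 11 from 15935632 to 15942063) and ATP7A over 8428. Whether the ATP7B row covers the whole gene was not tested. SCO1 and COX17, which bring copper to cytochrome c oxidase, rose by 2.02 and 1.62 (limma adjusted p = 0.000564 and 0.0164), and COX17 had 445 FPKM in piPSC7 beside 155 and 176 FPKM in the other piPSCs. COX17 lost its call without PEF7 or without PEF8, at limma adjusted p of 0.0532 and 0.0517. SOD3, the secreted copper-zinc superoxide dismutase, fell from 126, 147 and 40.3 FPKM to 2.6, 1.4 and 0.328 FPKM (log2 fold change -5.35, SE 0.57, limma adjusted p = 0.000792). SLC31A2, a relative of the copper importer, fell by 1.09 (limma adjusted p = 0.0186), and by 0.85, under 2-fold, without PEF8. SLC31A1, the copper importer itself, was at 4.75 to 8.19 FPKM in PEFs and 8.18 to 9.75 FPKM in piPSCs and was not called (limma adjusted p = 0.162). ATOX1, the chaperone that brings copper to ATP7A and ATP7B, was at 68.2 to 74.3 FPKM in PEFs and 30.3, 58.9 and 32.5 FPKM in piPSCs, with a limma adjusted p of 0.0326 and a change under 2-fold (log2 fold change -0.85) that reached -1.15 without piPSC7 and -1.12 and -1.19 under the median ratio and equal sum rescalings. Without PEF5, PEF7, PEF8, piPSC5 or piPSC8, its limma adjusted p lay above 0.05, between 0.0743 and 0.104.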

How the data were processed

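RNA-seq of poly(A)-selected RNA (150 bp paired reads) gave 1 library for each of 3 PEF and 3 piPSC lines. The authors deposited FPKM values per gene on Sscrofa11.1, and the submitters' processing notes list HISAT2 2.1.0, Bowtie2 2.2.3 and HTSeq 0.6.0 without giving their roles. The members and lists were chosen with earlier results of these data known. Library totals were inferred from the steps between the FPKM values of small RNA genes. With these totals, whole fragments were found for 18007 of 18007 genes. The gene length taken was the smallest that gave whole fragments, so a count and its length can be too small. In simulated data 296 of 300 genes had exact fragments.

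Groups were compared on log2(FPKM + 1) with limma 3.58.1 (R 4.3.3; lmFit, eBayes with trend) over genes with a mean of at least 0.5 FPKM, two-sided, with Benjamini-Hochberg adjustment over 12428 genes. A call needed an adjusted p under 0.05 and at least 2-fold. The fit was tested on simulated data of 12428 genes, of which 200 were given a log2 change of 2 in either direction. It called 149 of these 200, each with the right sign, and 13 genes that had been given no change. A piPSC line carries the number of its parent PEF line, so the numbers pair the samples. After removal of group means, the paired libraries correlated at 0.0921, 0.0946 and 0.08 and other pairs between -0.121 and 0.0553. P-values measure the spread between lines of 1 cross, with 3 libraries per group. All listed members with a row are named, and of each other group the 3 genes called in each direction with the greatest change and those with set roles (such as FTL, ACO1 and ATOX1). LTF and HAMP are not analysed here, and 1 gene that this rule would name is not reported here. Symbols were matched to rows by name, and 11 list genes through a table of gene identifiers. Intervals and limits at a count of 0 (3 fragments) cover counting error only. Iron-responsive elements were read from RefSeq transcripts and the genome. Alternatives were another pseudocount, filters, scalings, voom on recovered fragments, the block and leaving out libraries, and leaving out both libraries of line 8 was chosen after seeing the data.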

Additional observations from a re-analysis of the deposited data

Results flagged for a closer look

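STEAP3 and ATP7A ran in opposite directions in different lines, and that difference between lines was not tested, since each line has 1 library per cell type. The difference of log2(FPKM + 1) between piPSC and PEF was 0.66 in line 5, 1.06 in line 7 and -0.42 in line 8 for STEAP3. For ATP7A it was -0.28 in line 5, -0.27 in line 7 and 0.16 in line 8.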

How the results depend on the processing

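CP, IREB2, FTH1 and SLC40A1 kept their direction under every alternative run. CP was at 8.57 with a pseudocount of 0.1, 7.24 with libraries rescaled to an equal sum and 9.33 in voom on recovered fragments, and between 6.03 and 6.67 with libraries left out. FTH1 was at -2.49 after median ratio scaling, -2.54 after equal sum scaling and -3.25 after quantile normalization, and between -2.37 and -2.06 with libraries left out. IREB2 was at 1.23 and 1.24 under the first 2 of those scalings and between 1.29 and 1.70 with libraries left out. ATP7A was at -0.43 after equal sum scaling and between -0.27 and -0.05 with libraries left out. With libraries left out, TFRC lay between 0.15 (without line 8) and 1.20 (without piPSC7), SLC40A1 between -3.37 and -2.49, and STEAP3 between -0.15 and 1.12. Over all alternatives SLC40A1 reached -3.45 (equal sum scaling) and STEAP3 -0.31 (voom). The median of all tested genes was 0.20, and -0.01 and -0.06 after median ratio and equal sum scaling, under which 42.6% and 41.4% of calls were higher in piPSCs, beside 54.8%. With the replicate block, 4485 genes were called beside 4575, and leaving out libraries gave 4049 to 4639. The list, with 15 higher and 14 lower, had 14 higher and 17 lower after median ratio scaling, 14 higher and 19 lower after equal sum scaling, and 24 to 29 calls with libraries left out, 10 to 14 of them lower. HMOX2, COX17, SLC31A2 and MELTF lost their call in some of those fits, and MELTF lost it with each library left out in turn. With 1 library per line, no spread within a line is known, and the values of TF in piPSC5 and of STEAP3 in piPSC8 rest on 4 fragments and 1.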

Other observations

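Rows outside the lists were named after their values were seen. The neighbour of CP, a ceruloplasmin-like gene (ENSSSCG00000025468, chromosome 13 from 89479681 to 89513351, minus strand) that begins 16133 bases beyond it, had 0 fragments in the 3 PEF libraries and in piPSC7, 5 in piPSC5 and 163 in piPSC8 (7.62 FPKM), so it did not share the level of CP in piPSC5 and piPSC7. A row annotated as a metallothionein, a class of small proteins that bind copper and zinc (ENSSSCG00000030300, chromosome 6 from 18645153 to 18646033, plus strand), had 316, 148 and 1031 FPKM in PEF5, PEF7 and PEF8 and 3.84, 8.24 and 2.97 FPKM in piPSC5, piPSC7 and piPSC8. The gene next to TF that encodes a transferrin relative, the inhibitor of carbonic anhydrase, had 0.312, 0.116 and 0.251 FPKM in piPSCs and at most 0.031 FPKM in PEFs, and no test was made because it lies below the filter.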
